A study of Mus musculus with 70 samples.

Results

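The genes examined here are Hand1, Hand2, Twist1, Twist2 and Pitx1, 5 of the 20807 protein-coding genes on the mouse autosomes. An interaction was assigned to a gene when 1 of its ends was a 10-kb bin that holds a transcription start site (TSS) of that gene in the GENCODE annotation of GRCm38 (mm10), which is called the promoter bin below. The 12 pooled call sets held 157 distinct interactions of these genes among 248620 in all. In the 24 replicate call sets the genes had 104 of 142114 distinct interactions. Hand2 had 61 of the pooled interactions, Twist1 had 53, Pitx1 had 23, Twist2 had 15 and Hand1 had 5.

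Hand1, Hand2, Twist1 and Twist2 encode basic helix-loop-helix (bHLH) transcription factors that bind E-boxes as dimers with each other or with E proteins such as those of Tcf3, Tcf4 and Tcf12, and Id proteins compete for these partners without binding DNA. Hand2 is known for the posterior limb bud, where it acts upstream of Shh, for the mandibular arch downstream of endothelin signalling, and for the heart and sympathetic neurons. Hand1 acts in the heart and the trophoblast. Twist1 is needed in cranial mesenchyme, in cranial sutures and in limb outgrowth, and Twist2 acts in dermal and facial mesenchyme. Pitx1 encodes a homeodomain factor of the hindlimb bud, the mandibular arch and the anterior pituitary.

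H3K4me3 PLAC-seq, which enriches proximity-ligated chromatin with an antibody against trimethylated lysine 4 of histone H3 and thereby reads contacts of marked promoters, was measured in mouse embryos at E12.5 in 4 tissues of the neural axis, which were neural tube (NT), hindbrain (HB), midbrain (MB) and forebrain (FB), and in liver (LV), limb (LM) and the craniofacial prominence (CF), and FB was followed through each embryonic day from E13.5 to E16.5 and at birth (P0). Each of these 12 tissue-stages had 2 biological replicates, and the methods of the study name female C57BL/6N mice and neither an allele nor a treatment for any group. The study's reporting summary names pregnant females as the source and states that the sex of the collected stages was not assessed. CTCF ChIP-seq was done in the same tissue-stages. For each, 2 peak lists were deposited, of which the one whose number of peaks equals that in the study's supplement was used, and the origin of the other is not given in the sources used here. All samples are dissected bulk tissue, and the LM label does not say which limbs. In the call sets used here, a pair of bins was tested only in tissues where at least 1 of its ends carries an H3K4me3 peak. A pair with no call thus has no value, and a lack of calls cannot be told apart from a lack of the mark. The study also made calls on the pooled H3K4me3 peaks of all 12 tissue-stages for comparison across tissues, and those calls were not used here.

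Libraries held between 11396 and 63868 called interactions, and the pooled sets, which the authors brought to equal numbers of usable reads, between 21945 (LV) and 79677 (FB at P0). Numbers of interactions per library are therefore given as called and, where stated, scaled to the median library total of 25872. The tissue labels were checked by the summed scaled numbers of marker genes. The list for mesenchyme, cartilage and muscle reached a mean of 122 in LM and 84.6 in CF, against 28.6 to 53.6 in the 4 neural tissues at E12.5 and 3.99 in LV, with Myf5 at 0 in LM and CF. The 6 neural markers summed to 74.5 to 191 in the neural tissues, 39.8 in CF, 3.53 in LM and 2.27 in LV. Of these markers, Elavl4 was at 0 in FB, MB and NT at E12.5 and Neurod1 in FB at E12.5. Both were also at 0 in CF, LM and LV. In LV the blood list stood at 44.2, against 2.21 to 3.34 in the other E12.5 tissues, while Alb and Hnf4a, both hepatocyte genes, were at 0 and the hepatocyte list (14.8) lay within the range of the other tissues (6.44 to 16.2).

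The positions of the genes in GRCm38 are as follows. Hand2 (ENSMUSG00000038193.4) lies on the forward strand at chr8:57320983-57324633 and shares its promoter bin with the antisense gene Hand2os1, so calls of the 2 genes cannot be told apart. Twist1 (ENSMUSG00000035799.6) lies on the forward strand at chr12:33957671-33959829. Twist2 (ENSMUSG00000007805.4) lies on the forward strand at chr1:91801461-91848028 and shares its bin with the annotated gene Gm29100. Pitx1 (ENSMUSG00000021506.7), on the reverse strand at chr13:55825051-55836192, shares its bin with Gm28760, and Hand1 (ENSMUSG00000037335.13) is on the reverse strand at chr11:57828705-57832818. Distances are between bins and are called upstream or downstream in the direction of transcription.

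CTCF is a zinc finger protein that, with cohesin, anchors chromatin loops, and the direction in which its motif is read is known to bear on the loops that form. The sites shown next are those under CTCF peaks at the promoter bin of Twist1 and at a selection of partner bins. Each was found with a 19-bp matrix estimated from the peaks, is written 5′ to 3′ along the strand on which the motif reads forward, and has motif positions 4 to 15, the core, in capitals.

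Twist1 promoter bin, 4.65 kb upstream, chr12:33953016-33953034 (reverse strand): tgaCCACAAGAGGACacaa
Twist1, 476.5 kb upstream, chr12:33481150-33481168 (forward strand): tcaCCACCGGGGGGAgtat
Twist1, 475.0 kb downstream, chr12:34432650-34432668 (reverse strand): gatCCACAAGAGGGAgaca
Twist1, 700.7 kb downstream, chr12:34658405-34658423 (reverse strand): tccCCTCTGGAGGGCagtg
Twist1, 707.3 kb downstream, chr12:34664943-34664961 (forward strand): gagCCACCAGGGGGAgtca
Hand2, 790.4 kb upstream, chr8:56530547-56530565 (forward strand): agaCCACAAGGTGGCgctg
Hand2, 705.66 kb upstream, chr8:56615315-56615333 (reverse strand): tagCCACTAGGTGTCagag
Hand2, 704.5 kb upstream, chr8:56616443-56616461 (forward strand): cggCCAGAAGAGGGCtgca
Hand2, 638.3 kb upstream, chr8:56682700-56682718 (forward strand): tagACGCTAGGTGGCaata
Hand2, 436.6 kb upstream, chr8:56884380-56884398 (forward strand): tagCCAGTAGAGGGAgata
Hand2, 479.6 kb downstream, chr8:57800598-57800616 (reverse strand): tggCCACCAGAGGGCagca
Pitx1, 127.3 kb upstream, chr13:55963444-55963462 (reverse strand): cggCCAACAGGTGGCagga
Pitx1, 236.1 kb upstream, chr13:56072266-56072284 (reverse strand): cctCCACTAGATGTCgccc
Pitx1, 315.9 kb upstream, chr13:56152032-56152050 (reverse strand): taaCCACCAGGGGGCgata
Twist2, 277.5 kb upstream, chr1:91523947-91523965 (forward strand): tgaCCACTAGGTGGCgtgg
Twist2, 227.1 kb upstream, chr1:91574385-91574403 (forward strand): aggCCAGAAGAGGGCacag
Hand1, 101.7 kb upstream, chr11:57934457-57934475 (reverse strand): cagCCAGCAGGTGGCgata
Hand1, 283.7 kb downstream, chr11:57549086-57549104 (forward strand): cagCCAGCAGAGGCCgctg

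Since Hand2, Twist1 and Twist2 had their highest numbers of interactions in the same tissues, the 250 bases before their start sites are shown as well, from RefSeq (GRCm38.p6), in which these 3 of the 5 genes were matched. The letters CCAAT, which are read as ATTGG on the other strand, and the E-box CANNTG, which reads the same on both strands, are in capitals.

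Hand2, chr8:57320733-57320982 (forward strand): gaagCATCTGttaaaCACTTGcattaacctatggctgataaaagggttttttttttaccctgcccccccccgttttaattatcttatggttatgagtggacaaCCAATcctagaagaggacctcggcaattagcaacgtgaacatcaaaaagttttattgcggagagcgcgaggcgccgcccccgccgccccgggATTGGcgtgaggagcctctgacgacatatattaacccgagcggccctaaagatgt
Twist1, chr12:33957421-33957670 (forward strand): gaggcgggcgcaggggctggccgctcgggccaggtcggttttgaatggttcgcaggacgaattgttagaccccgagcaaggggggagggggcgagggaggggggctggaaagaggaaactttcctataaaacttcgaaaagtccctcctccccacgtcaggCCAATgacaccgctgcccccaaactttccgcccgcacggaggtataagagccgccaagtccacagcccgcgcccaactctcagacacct
Twist2, chr1:91801211-91801460 (forward strand): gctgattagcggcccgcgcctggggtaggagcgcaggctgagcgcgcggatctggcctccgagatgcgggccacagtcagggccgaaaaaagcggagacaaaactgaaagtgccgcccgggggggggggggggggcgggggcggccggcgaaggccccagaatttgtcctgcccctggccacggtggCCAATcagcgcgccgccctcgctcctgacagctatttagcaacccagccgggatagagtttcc

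Each of the 3 windows holds CCAAT or ATTGG, which 33.9% of the 32851 promoters of the table hold in the same window. It begins 89 bases before the start of Twist1, 63 bases before that of Twist2, and 147 and 55 bases before that of Hand2. The E-box letters occur in the Hand2 window only, as CATCTG and CACTTG, and in 66.2% of all promoters. G and C make up 68.8% of the Twist2 window, 62.4% of the Twist1 window and 49.2% of the Hand2 window, with a median of 52.4% over all promoters.

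Hand2, Twist1, Twist2 and Pitx1 had more interactions in LM and CF than in the 4 neural tissues at E12.5, a comparison of tissues rich in mesenchyme with tissues of the neural axis. The largest numbers were those of Hand2 and Twist1. Hand1 did not pass the test. With these genes, the marker list for mesenchyme, cartilage and muscle also stood higher in LM and CF, so that a larger part of cells with such contacts and more contacts per cell cannot be told apart.

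For Hand2, 25 and 32 interactions were called in the 2 LM libraries and 10 and 15 in the 2 CF libraries. The 8 neural libraries at E12.5 had between 1 and 7. After scaling, the values were 51.9 and 39.9 in LM, 14.4 and 20.4 in CF, and 1.22 at the lowest, 2.31 at the median and 5.37 at the highest in the neural libraries. Every LM and CF library thus lay above every neural library, and the pooled set of LM placed Hand2 81st among all genes by its 52 interactions. On the scale of log2(scaled number + 1), the difference was 3.04 ± 0.24 (SE, 4 against 8 libraries), with an adjusted p of 3.9e-06 (limma).

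Twist1 had 9 and 25 called interactions in LM, 9 and 15 in CF, and at most 2 in any neural library at E12.5. Scaled, these were 18.7 and 31.1 in LM and 12.9 and 20.4 in CF, whereas the neural libraries ran from 0 through a median of 1.16 to 1.88. No value of the 2 groups overlapped. The difference in log2(scaled number + 1) was 3.57 ± 0.35 (SE, adjusted p = 1.6e-05, limma). Among all genes, Twist1 ranked 166th in the pooled LM set and 175th in the pooled CF set.

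Twist2 had 5 and 9 interactions in LM and 2 and 5 in CF, and none was called in any of the 8 neural libraries at E12.5. The scaled values were 10.4 and 11.2 in LM and 2.87 and 6.82 in CF. Its difference was 3.01 ± 0.28 (SE, adjusted p = 9.83e-06, limma). All groups of the fit share 1 estimate of the spread. FB, MB, HB, NT and LV, at 0 in both libraries, add nothing to it, so this SE and p may be too small. Twist1 and Twist2 passed the filter on low numbers only through LM and CF, with a mean of 0.736 and 0 scaled interactions in the other 10 libraries at E12.5, so their calls stand as measurements of their own and are not counted with the others.

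Pitx1 had 4 and 8 interactions in LM and 9 and 8 in CF, and it kept between 1 and 5 in the neural libraries. The scaled values were 8.31 and 9.96 in LM and 12.9 and 10.9 in CF, against 1.09, 3.95 and 6.11 as the lowest, median and highest neural value. The groups did not overlap, but the difference of 1.501 ± 0.32 (SE, adjusted p = 0.0041, limma) was smaller than for the 3 genes above. For Hand1, no library held more than 2 interactions, and LM and CF (0, 1.25, 1.44 and 1.36 after scaling) lay within the range of the neural libraries (0 to 2.18). Its difference was 0.22 ± 0.32 (SE, adjusted p = 0.65, limma).

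Over all 5389 genes tested in this comparison, 26.8% were called, 11.7% as higher in LM and CF and 15.1% as lower, and the median difference was -0.04. The share of all genes with every LM and CF library above every neural library is not given. The lack of overlap described for single genes thus has no background. The 2 calls that did not rest on the filter, those of Hand2 and Pitx1, stand beside the share of 11.7%, and 2 genes are too few to read against it. The calls of Hand2, Twist1, Twist2 and Pitx1 held under each of 8 alternatives and with each of the 14 libraries left out. Without scaling, the split of all calls moved from 43.6% higher to 19.8% higher and the median difference of all genes to -0.36.

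**Figure D1:**
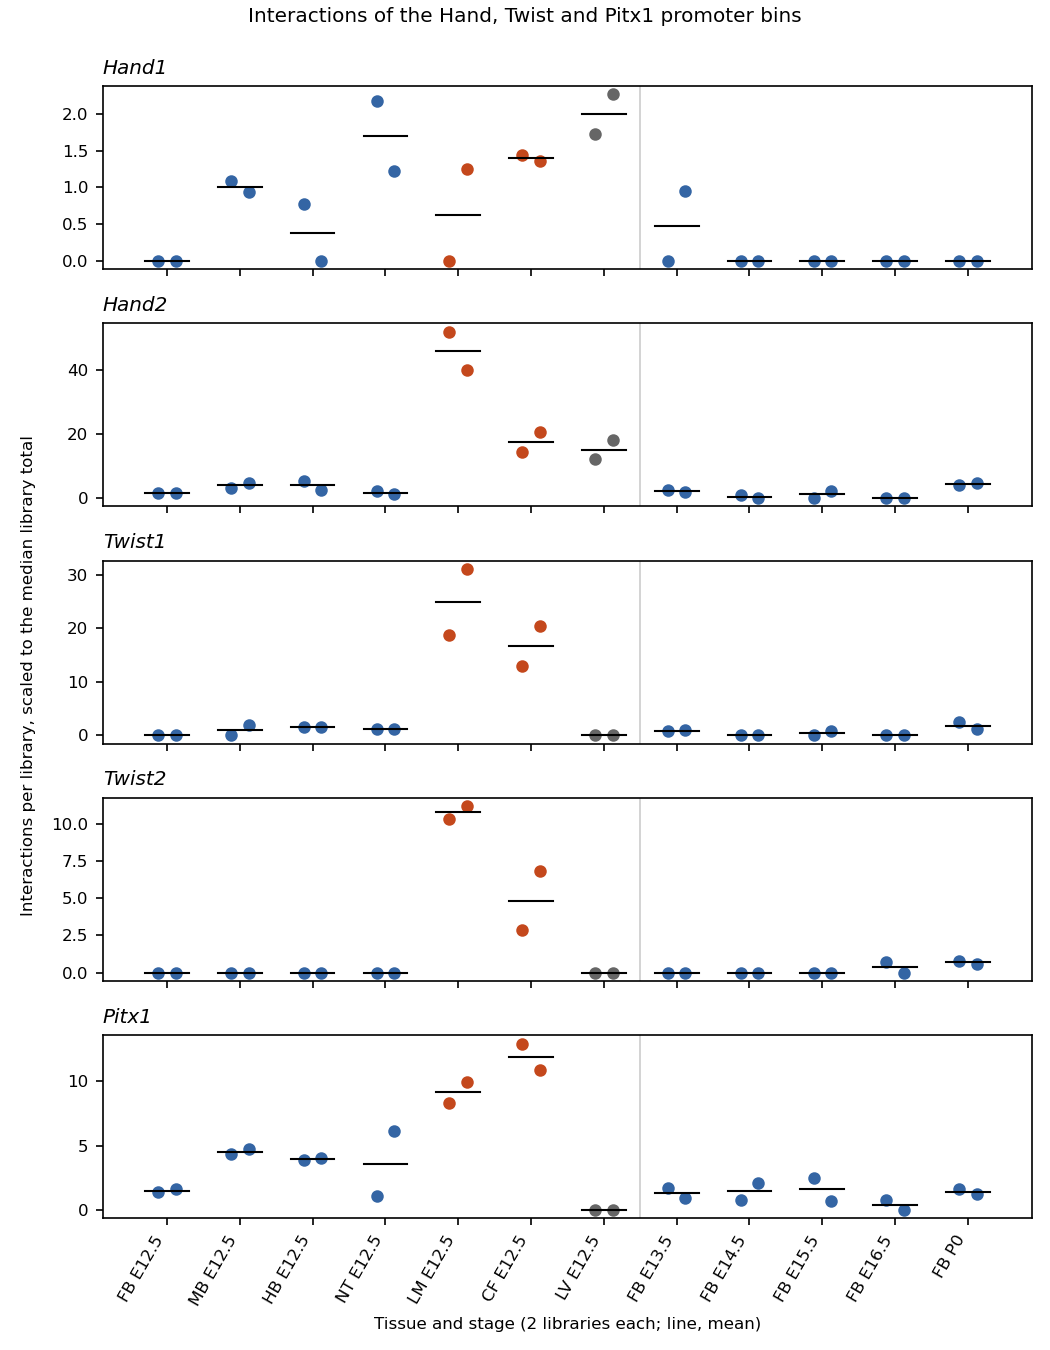
Interactions of each promoter bin per library, scaled to the median library total (y axis, one panel per gene with its own scale), for the 12 tissue-stages (x axis). Points are the 2 libraries and lines their mean; LM and CF are in orange, LV in grey, neural tissues in blue. Hand2 reached 39.9 and 51.9 in LM, and Twist2 was at 0 in all 8 neural libraries at E12.5.

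LM and CF were also compared with each other. Hand2 had the largest difference, with 45.9 in LM and 17.4 in CF as means of the scaled numbers, a log2 difference of 1.36 ± 0.40 (SE) and a 95% interval of 0.49 to 2.22. Its adjusted p of 0.055 missed the threshold of 0.05, which it passed in edgeR's quasi-likelihood test (adjusted p = 0.0078). Twist2 differed by 1.10 ± 0.45 (adjusted p = 0.15), Twist1 by 0.54 ± 0.57 (0.62), Pitx1 by -0.35 ± 0.52 (0.75) and Hand1 by -0.68 ± 0.52 (0.47). None of the 5 genes passed the limma test after adjustment (Hand2 and Twist2 had an unadjusted p under 0.05, and edgeR called Hand2), in which 7.96% of all genes did, 2.41% as higher in LM and 5.55% as lower. Pitx1, a hindlimb gene, was thus neither shown to differ between LM and CF nor shown to be equal.

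In LV, Hand2 kept interactions while Twist1, Twist2 and Pitx1 had none. Hand2 had 7 and 8 interactions in the 2 LV libraries, which scaled to 12.1 and 18.2. These scaled values lay above all neural libraries at E12.5 and overlapped with CF (14.4 and 20.4). As called, the neural libraries reached 7, so the called numbers were not separate. The share of all genes with such a separation after scaling is not given. Against the mean of the other 6 tissues at E12.5, Hand2 was higher by 1.15 ± 0.30 on the log2 scale (SE, adjusted p = 0.0088, limma). This call was lost without scaling (0.47, adjusted p = 0.23), in edgeR (adjusted p = 0.10) and without LV replicate 2 (0.88, adjusted p = 0.14).

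Pitx1 (-2.51 ± 0.40, adjusted p = 0.00031), Twist1 (-2.001 ± 0.44, adjusted p = 0.0028) and Twist2 (-1.003 ± 0.35, adjusted p = 0.032) were lower in LV, where Twist1 and Twist2 again entered the test only through LM and CF. Hand1, with 1 interaction in each LV library, did not pass (0.80 ± 0.39, adjusted p = 0.11). In this comparison 46.2% of all genes were called, 22.1% as higher and 24.1% as lower, so that shares this large leave little to read from the members. The call of Twist2 was lost without scaling (adjusted p = 0.062), with calls at an observed/expected ratio of at least 3 (0.086), in edgeR (1.0) and without LV replicate 1 (0.12) or LV replicate 2 (0.17), and that of Twist1 in edgeR (1.0). The blood markers stood at 44.2 in LV and the mesenchyme markers at 3.99, with 7 of 8 at 0, and the part of either in these results was not tested.

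In FB from E12.5 to P0 the 5 genes had few interactions. Hand2 ranged over the 12 FB libraries from 0 through a median of 1.51 to 4.82 scaled interactions, with 0 in both libraries at E16.5 and 10 and 8 called interactions at P0. Pitx1 ranged from 0 to 2.47 with a median of 1.31. Twist1 lay between 0 and 2.43, Twist2 was above 0 in 3 of the 12 libraries, and Hand1 in 1 of them. Between late FB (E16.5 with P0) and early FB (E12.5 with E13.5), Hand2 differed by -0.28 ± 0.42 (adjusted p = 0.67), although its mean scaled number was 2.22 in late and 1.86 in early FB, and Pitx1 by -0.43 ± 0.39 (adjusted p = 0.46), while 24.1% of all genes were called, 14.8% as higher and 9.23% as lower. The other 3 genes fell below the filter on low numbers. Without that filter, Twist2 had a difference of 0.58 with an adjusted p of 0.059.

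**Figure D2:**
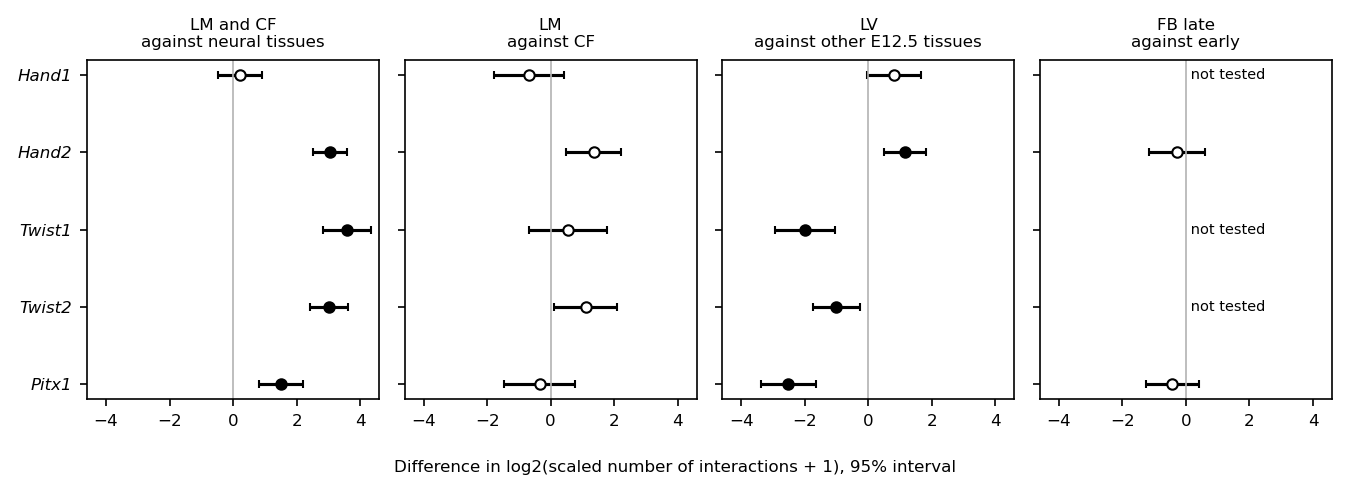
Differences in log2(scaled number of interactions + 1) of the 5 genes (rows) in 4 comparisons (panels; x axis, log2 units) with 95% intervals from limma. Filled points have an adjusted p under 0.05, open points do not, and genes below the filter on low numbers are marked as not tested. Hand2, Twist1, Twist2 and Pitx1 lie to the right of 0 in the first panel, and only Hand2 does with a filled point in the third.

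The numbers in the pooled sets are given as called, since the authors matched the total of usable read pairs per chromosome before calling, although the sets still differ in their total of calls. Hand2 had 52 interactions in LM, 28 in CF, 13 in LV and 6 to 10 in the neural tissues at E12.5. Twist1 had 37 in LM and 32 in CF against 2 to 9 in neural tissues and 0 in LV. Twist2 had 11 in both LM and CF, 3 in NT and 0 in FB, MB, HB and LV. Pitx1 had 17 in CF and 12 in LM, and with 8, 9 and 10 in MB, HB and NT these neighbours in the order are close. Hand1 had between 0 and 3 in every set. In FB, Hand2 went from 7 at E12.5 to 5, 4, 1 and 0 at the next stages and was at 12 at P0, with no replicate error for these pooled values.

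Of the 154 distinct interactions that the 5 genes had in the pooled sets at E12.5, 92 were found in LM or CF only, which is 59.7% (95% Wilson interval 51.8 to 67.2, counting error only, and neighbouring bins of 1 gene are not independent). Over all interactions with a promoter bin the share was 20.2%. The 5 genes had 115 pooled calls in LM and 90 in CF, against 13 to 30 in the neural sets at E12.5. Their share thus restates this difference in numbers and is no separate result. The share was 78.6% for Twist2, 71.2% for Twist1, 55.7% for Hand2 and 36.4% for Pitx1, and Hand1 had 2 of its 5 interactions in LM or CF only. When a call within 1 bin in another tissue counted as found there, the share for the 5 genes fell to 43.5%.

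Hand2 contacted bins up to 810 kb upstream of its promoter. A stretch from 570 to 810 kb upstream (chr8:56510001-56760000) took 89 of its 145 pooled calls and was present in 11 of the 12 sets, all but FB at E16.5. LM gave 24 and CF 20 of these calls. The bin 700 kb upstream was called in 17 of the 24 libraries. Its observed/expected ratio, the number of read pairs over that expected by the model of the caller, was 8.43 and 9.23 in LM, 12.3 and 8.87 in CF, 6.34 and 7.75 in LV, and 4.26 to 9.11 in the 6 neural libraries at E12.5 that had the call. The neural values overlapped those of LM and CF through HB replicate 1. The stretch holds the TSSs of Cep44 and Fbxo8, with a bin 770 kb upstream that holds both and was called in 7 pooled sets.

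Nearer to Hand2, the stretch from 390 to 490 kb upstream held 21 pooled calls, 9 in LM, 4 in CF, 7 in LV and 1 in FB at P0, and no protein-coding gene. In its bin 440 kb upstream the ratios were 7.04 and 7.02 in LM, 4.76 and 7.00 in CF and 5.97 and 8.03 in LV. It was also called in 2 of the 8 neural libraries at E12.5, at 4.65 in HB replicate 1 and 6.09 in NT replicate 1, and in 1 FB library at P0 (4.84), so that the neural values reached into the range of LM and CF. From 180 to 280 kb upstream all 10 calls were from LM. The bin 20 kb downstream, in contrast, was called in FB, HB, NT and CF, at ratios of 2.00 to 2.55. Downstream calls at 160 to 210 kb lay over Sap30, Hmgb2 and Galnt7, and those at 470 to 490 kb in Galntl6.

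Twist1 had partners on both sides, 39 of its 104 pooled calls upstream and 65 downstream. Downstream partners from 190 to 720 kb all lay within Hdac9, a histone deacetylase gene, whose introns and exons fill that side. Those at 190 to 270 kb (13 calls) and at 320 to 340 kb (4 calls) came from LM and CF only, whereas those at 420 to 510 kb were found in 6 sets and those at 660 to 720 kb in 8. The bin 480 kb downstream, which holds a TSS of Hdac9, had ratios of 4.69 and 6.25 in LM and 6.25 and 4.86 in CF and was in no neural library at E12.5, but the pooled sets of MB (5.25) and HB (3.79) had it, as did 1 FB library at P0 (3.76). The bin 480 kb upstream had ratios of 5.25 and 3.15 in LM and 5.79 and 4.79 in CF and was called in no other library, but in the pooled sets HB (5.52) and NT (4.74) had it too, above LM (3.30). Upstream, a stretch from 400 to 530 kb held 21 calls in 7 sets and the TSS of Twistnb, and bins at 560 to 580 kb lay over Efcab10 and Atxn7l1.

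**Figure D3:**
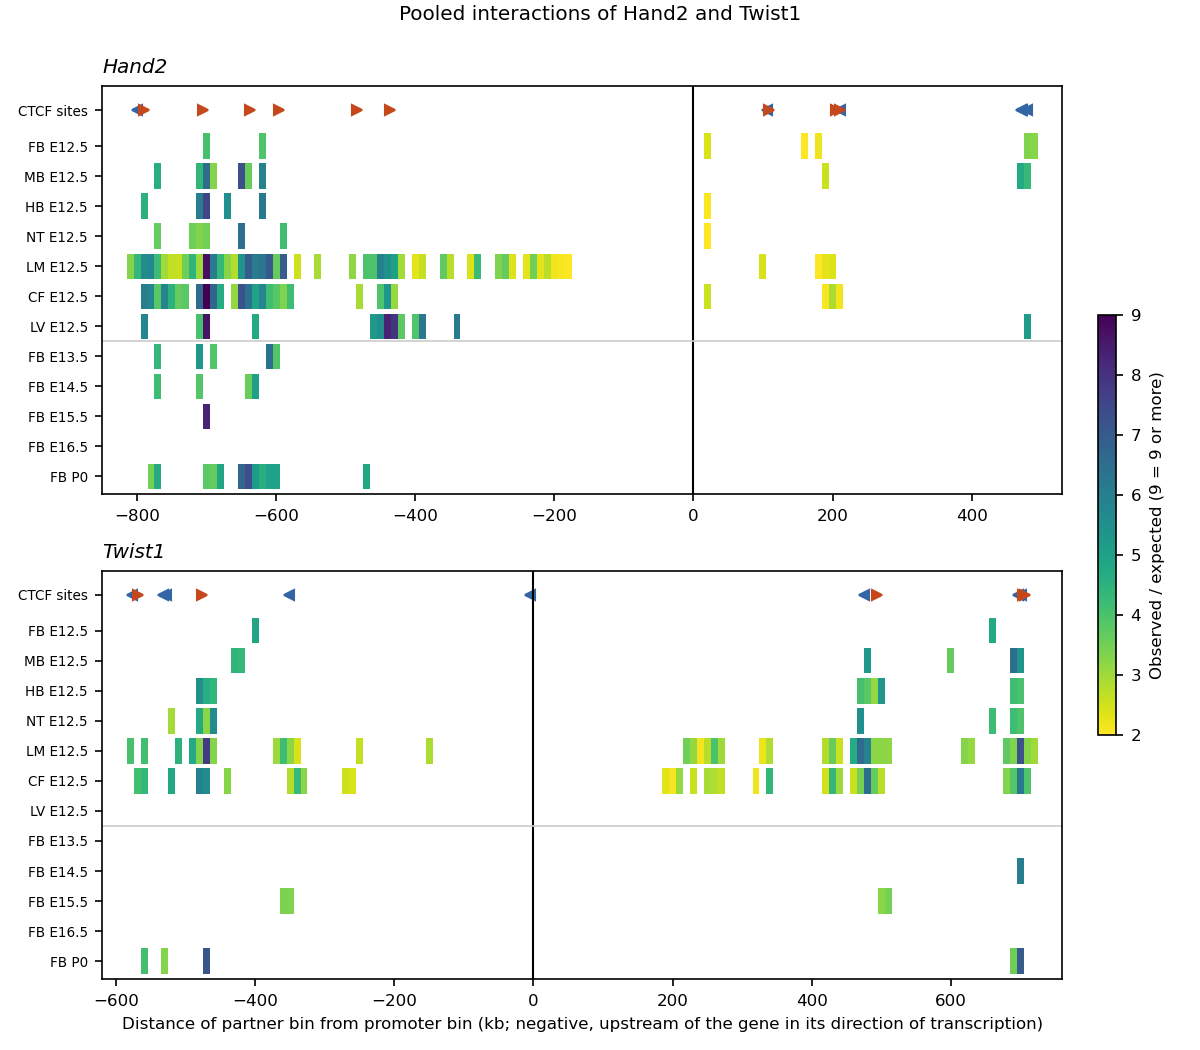
Pooled interactions of Hand2 and Twist1 by distance of the partner bin from the promoter bin (x axis, kb, negative upstream) in the 12 tissue-stages (rows); color is the observed/expected ratio. Triangles mark CTCF sites present in at least 10 lists, orange where the motif points downstream and blue where it points upstream. Hand2 calls gather 570 to 810 kb upstream in 11 rows, and the Twist1 calls at 190 to 270 kb downstream lie in the LM and CF rows.

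Twist2 had 30 of its 36 pooled calls from 190 to 280 kb upstream (chr1:91520001-91620000), in 7 sets. LM gave 9 and CF 8 of these, NT 3 and the FB sets from E14.5 to P0 the other 10. The stretch holds the TSSs of Asb1 and exons of Traf3ip1. In single libraries, the bin 280 kb upstream was called in the 2 LM libraries (3.54 and 3.02) and the 2 CF libraries (4.24 and 3.03) and in no other, although the pooled LM set lacked it. A call 810 kb downstream at Olfr12 was seen in the pooled FB set at E14.5 and in no library.

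Pitx1 had its partners close by and shared them between tissues. The stretch from 80 to 150 kb upstream (chr13:55910001-55990000), without a protein-coding gene, held 37 of its 77 pooled calls and was present in all sets but LV. The bin 130 kb upstream was called in 21 of 24 libraries. Its ratios were 7.37 and 9.02 in LM and 5.92 and 4.78 in CF, while the 8 neural libraries at E12.5 ran from 2.45 through a median of 3.22 to 3.57. The LM and CF values lay above all neural values. Of the 1772 promoter-bin interactions called in all 12 libraries of LM, CF and neural tissues, 1.47% had ratios that were higher in LM and CF with no overlap, and this was the only one of them that belonged to the 5 genes. In the pooled sets it rested on 179 read pairs in LM and 208 in CF against 59 to 81 in the neural tissues at E12.5. The bin next to it, 120 kb upstream, had 5.20 and 5.39 in LM, 3.50 and 3.93 in CF, and 2.24 to 2.81 in the 3 neural libraries with a call.

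A second stretch of Pitx1 partners, 200 to 330 kb upstream, gave 35 calls in 8 sets and holds the TSSs of H2afy, which encodes the histone variant macroH2A1. The bins 80 to 100 kb downstream, in Pcbd2, were called in LM and CF only. A bin 420 kb upstream at Neurog1, a proneural bHLH gene, was called in both HB libraries and in the pooled HB set and in no other pooled set. Hand1 had 10 of its 14 pooled calls at 90 to 100 kb upstream, in 7 sets. In the 9 libraries with a call, the ratios of its bin 100 kb upstream lay between 2.33 and 3.26.

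**Figure D4:**
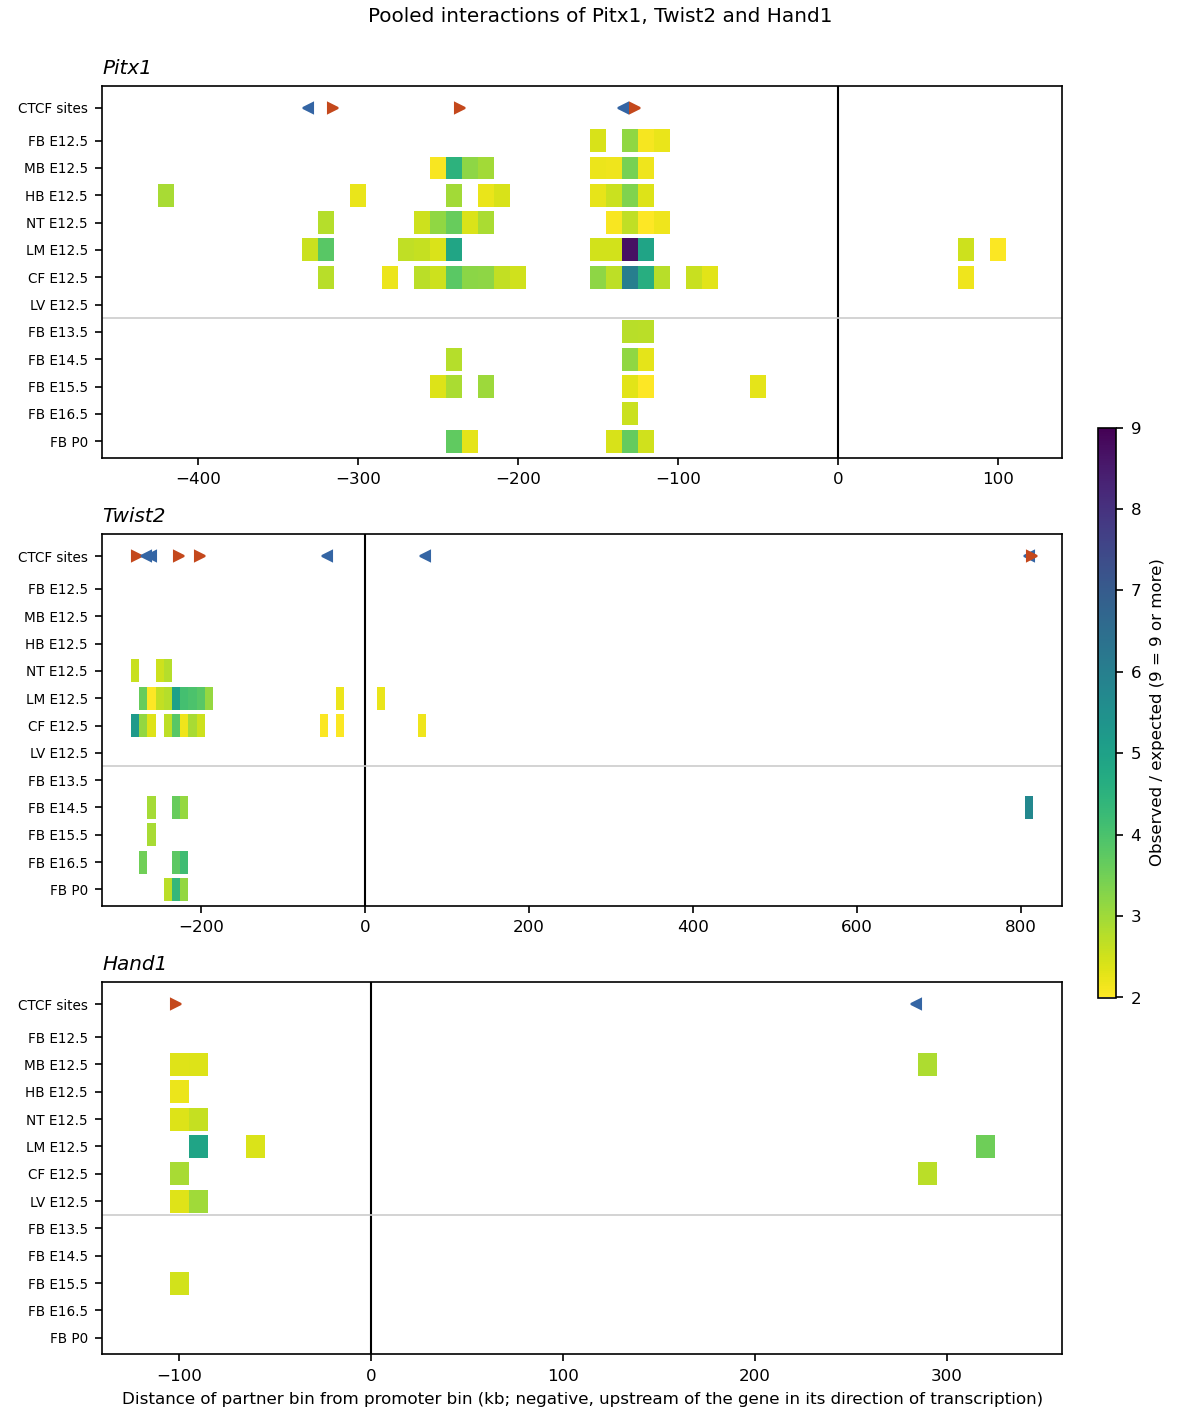
Pooled interactions of Pitx1, Twist2 and Hand1 by distance of the partner bin (x axis, kb, negative upstream) in the 12 tissue-stages (rows), with color for the observed/expected ratio and triangles for CTCF sites as for Hand2 and Twist1. The Pitx1 bin 130 kb upstream has a call in every row but LV and is darkest in LM (8.70) and CF (6.03).

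The calls recurred between replicates about as often as those of other genes. Of the 334 calls of the 5 genes in single libraries, 186 were also made in the other replicate, which is 55.7% (95% Wilson interval 50.3 to 60.9) against 55.8% over all calls, and 73.7% recurred within 1 bin. The share was 62.7% in LM and 66.7% in CF. Of the 23 member interactions called in at least 4 of the 12 libraries of LM, CF and neural tissues, 4 were called in every LM and CF library and in no neural library. These were the bins 630 kb upstream of Hand2, 480 kb upstream and 480 kb downstream of Twist1, and 280 kb upstream of Twist2. The Hand2 bin was also called in FB at E14.5 and P0, and pooled neural sets at E12.5 held both Twist1 bins, as given above, and the Twist2 bin (2.58 in NT), so these 3 bins are not without a call in the neural tissues. Among all promoter-bin interactions so called, the share was 0.761%. The reverse, a call in every neural library and in no LM or CF library, was found for 0 of the 23 and for 1.26% of all. A pair of the first kind reaches the minimum of 4 libraries through LM and CF alone. Its share therefore restates the higher numbers in LM and CF and is no separate result. The 23 interactions are too few to read 0 against 1.26%.

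The 5 genes differed in how far their contacts reached. The median distance over the pooled calls was 620 kb for Hand2, 470 kb for Twist1, 230 kb for Twist2, 150 kb for Pitx1 and 100 kb for Hand1, against 280 kb for all interactions with a promoter bin. Distances of at least 500 kb made up 62.1% of the Hand2 calls, 36.5% of the Twist1 calls and 23.3% of all. Hand2 (126 of 145), Twist2 (33 of 36) and Pitx1 (74 of 77) had most of their calls upstream. The Hand2 median was 480 kb in LM, 635 kb in CF and 450 kb in LV. Beyond 500 kb, LV had 4 of its 13 Hand2 calls, and over all its interactions 6.37%.

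CTCF peaks with a motif were found in the promoter bin of Twist1 and in no other of the 5 promoter bins. All 104 Twist1 calls therefore had CTCF at the promoter end, and none of the calls of the other 4 genes did. The share for the 5 genes, 27.7%, is therefore Twist1's part of their calls, and over all interactions with a promoter bin at 1 end it was 64.1%. At the partner end the share was 38.0%, beside 38.6% of all interactions with a promoter bin at 1 end only. The calls of the 5 genes include partner bins that hold a TSS, which the shares over all interactions leave out. These shares are therefore not of like sets. The share at the partner end was 78.6% for Hand1 (11 of 14), 61.1% for Twist2, 46.8% for Pitx1, 29.8% for Twist1 and 29.7% for Hand2. Both ends had CTCF in 31 calls, which were all of Twist1.

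The Twist1 promoter-bin site lies 4.65 kb upstream of the TSS on the reverse strand, so that its motif points upstream. It was under a peak in 11 of the 12 lists, all but LV, with a fold over input between 5.72 and 11.3 and a median of 7.83. LV also lacked a peak at the Twist1 sites 475.0 and 700.7 kb downstream, in both deposited LV lists, and had no Twist1 interaction. Of 26414 CTCF sites present in the other 11 lists, 6.02% were lacking in LV, while other tissue-stages lacked between 0.177% and 2.08% of theirs. Peaks without a motif lay at the Twist1 TSS in LM (4.90-fold) and CF (5.67-fold). At Twist2, such peaks lay 0.22 to 0.28 kb past the TSS in NT (4.29-fold), LM (5.89-fold), CF (5.05-fold) and FB at P0 (3.86-fold), and in no other list.

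At the partner bins, the sites printed above were under peaks in most lists, also in tissues where no interaction was called. The site 704.5 kb upstream of Hand2 had a median of 27.1-fold, the site 790.4 kb upstream 23.9-fold and the site 638.3 kb upstream 12.0-fold, and each was in all 12 lists. These lie in the Hand2 bins 710, 790 and 640 kb upstream. The Hand2 bin 700 kb upstream, called in 17 libraries, held weaker sites only. They were at 696.44 kb in 2 lists (median 4.32-fold) and at 693.72 kb in 1 list (4.06-fold). The site 436.6 kb upstream, in the bin that the pooled sets of LM, CF and LV contacted, was in 10 lists with a median of 9.37-fold. The LV list used had no peak over this site, although the other deposited LV list did. LV had the highest pooled ratio at that bin, 8.33 against 5.50 in LM and 5.33 in CF. In the Pitx1 bin 130 kb upstream, the site at 127.3 kb had a median of 15.7-fold. The Twist1 site at 476.51 kb lies in the Twist1 bin 470 kb upstream. The Twist1 bin 480 kb upstream and the Hand2 bin 630 kb upstream held no site in any of the 12 lists used. Twist2 had sites of 26.3-fold at 277.5 kb and 14.1-fold at 227.1 kb upstream, also in FB, MB and HB at E12.5 where Twist2 had no call. The highest medians among the printed sites were those of Hand1, with 40.7-fold at 101.7 kb upstream and 41.7-fold at 283.7 kb downstream.

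Among partner bins whose motifs pointed in a single direction, 81 of 116 calls (69.8%) had a motif that pointed toward the promoter. Over all interactions with a promoter bin at 1 end only, this was 77.0%. The count was 28 of 33 for Hand2, 9 of 10 for Hand1, 16 of 22 for Pitx1, 18 of 30 for Twist1 and 10 of 21 for Twist2. The sites printed above at 790.4, 704.5, 638.3 and 436.6 kb upstream of Hand2 all read on the forward strand and so point toward the gene. The site 705.66 kb upstream, in the same bin as that at 704.5 kb, reads on the reverse strand and points away, with a median of 28.7-fold over 9 lists, and so does a site 799.7 kb upstream (5.98-fold, 11 lists). Partner bins upstream of Twist1, Twist2 and Pitx1 also held sites under peaks in all 12 lists that point away, such as those 528.18 kb upstream of Twist1 (29.0-fold), 261.01 kb upstream of Twist2 (12.6-fold) and 331.46 kb upstream of Pitx1 (17.8-fold). At Twist1, the site 476.5 kb upstream faces the promoter-bin site, while the 2 at 475.0 and 700.7 kb downstream have the same direction as the promoter-bin site.

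**Figure D5:**
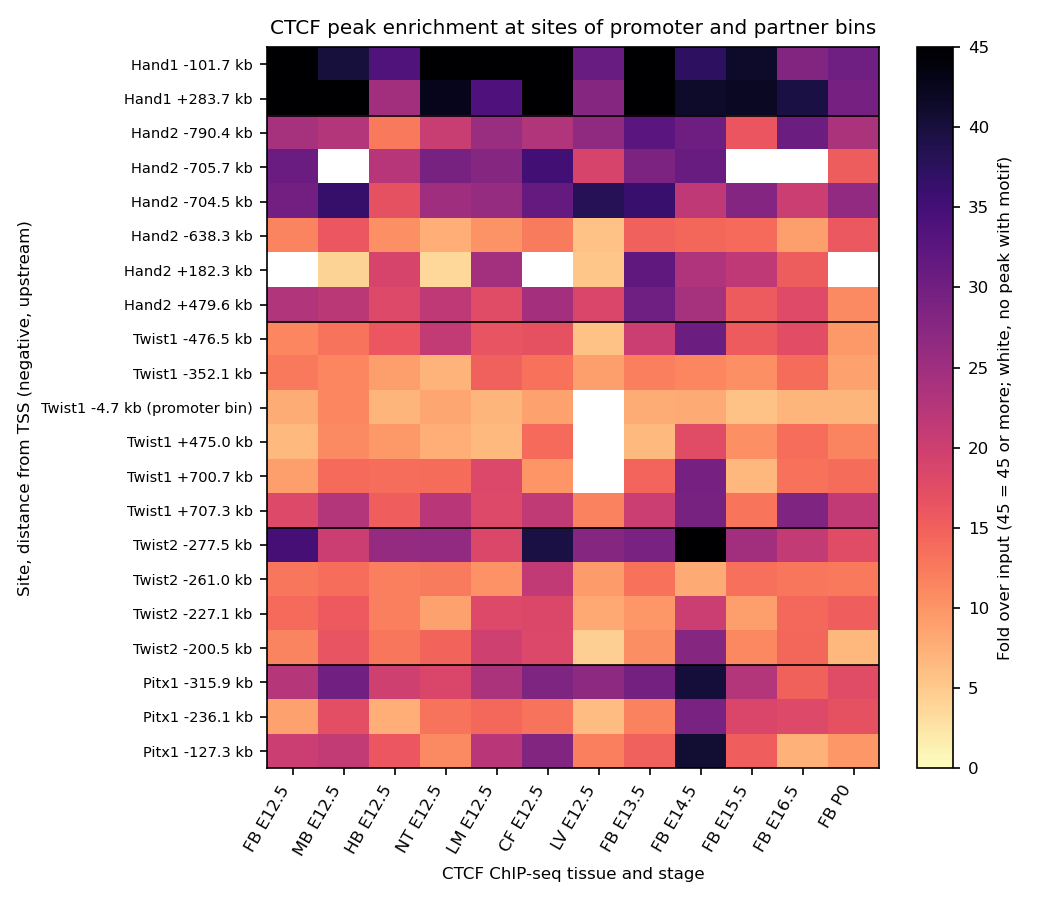
Fold over input of CTCF peaks (color) at sites of promoter and partner bins (rows, distance from the TSS in kb, negative upstream) in the 12 tissue-stages (columns). White marks no peak with a motif. The Twist1 promoter-bin site and the Twist1 sites 475.0 and 700.7 kb downstream are white in LV only.

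Genes that work with the 5 factors were followed through the same comparison of LM and CF with neural tissues. Of 7 dimer partners and inhibitors of bHLH factors tested, Id1 (1.68 ± 0.36, adjusted p = 0.0045) and Id2 (1.25 ± 0.40, adjusted p = 0.035) had more interactions in LM and CF, and Id4 had fewer (-1.38 ± 0.18, adjusted p = 0.00015). The E-protein genes Tcf3, Tcf4 and Tcf12 did not pass, and the median of the list was 0.46. In this comparison 11.7% of all genes were higher and 15.1% lower. The related gene Pitx3 did not pass (-0.44 ± 0.27, adjusted p = 0.25, limma), and between LM and CF it was lower in LM (-1.80 ± 0.43, adjusted p = 0.025), as were 5.55% of all genes.

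Among signals, regulators and targets around the 5 genes in limb and face, 22 of 25 were tested, 15 were higher in LM and CF and 3 lower. Of all genes, 11.7% were higher and 15.1% lower. Prrx1, Snai2 and Ednra passed the filter on low numbers only through LM and CF, and of the 19 others 12 were higher, with a median of 1.00 beside -0.04 for all genes. This list, like the others, was chosen with earlier results of these data known. Its count and median beside all genes are therefore a description only. Prrx1, a homeobox gene of limb and facial mesenchyme, had the smallest p and went from 0 in the neural tissues to a mean of 40.4 (5.28 ± 0.30, adjusted p = 1.75e-07). As for Twist2, tissues at 0 add nothing to the shared spread, so this SE may be too small. Prrx1, Prrx2 and Msx1, all called higher, are also among the mesenchyme markers that checked the tissue labels. That check and this count are therefore not independent. Bmp4, a signal of limb and face, differed by 3.12 ± 0.24 (adjusted p = 2.28e-06). Snai2, a repressor active in neural crest and mesenchyme, differed by 4.42 ± 0.40 (adjusted p = 8.16e-06), and Ednra, the endothelin receptor upstream of Hand2 in the jaw, by 2.70 ± 0.37 (adjusted p = 0.00022). Shh, the signal of the posterior limb margin and of the ventral neural tube, was lower by -1.22 ± 0.26 (adjusted p = 0.0038), and Zeb2 and Fgf8 were the other 2 that were lower. Between LM and CF, 4 of the 22, Tbx3, Fgf8, Dlx6 and Shh, were lower in LM, beside 5.55% of all genes.

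Over the 12 tissue-stages, the genes with the pattern most like that of a member were found by Pearson's r of log2(mean scaled number + 1), given as a description over 12 points that share the library scaling. For Twist1 these were Ednra (0.96), Snai2 (0.96) and Piezo2 (0.95), and for Twist2 Prrx1 (0.98), Ednra (0.97) and Col3a1 (0.97). For Hand2 they were Ccdc34 (0.93), Igf2bp3 (0.92) and Spry4 (0.91), for Pitx1 Mab21l1 (0.96), Sulf2 (0.92) and Rbm43 (0.92), and for Hand1 Catip (0.93), Chrne (0.90) and 4930544D05Rik (0.90), the last 2 of which share a bin.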

How the data were processed

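PLAC-seq calls at 10 kb were used as the authors deposited them for 24 libraries and 12 pooled sets. Per the methods of the study, MAPS gave each called pair an observed count of read pairs, and the expected signal and the FDR (a p-value adjusted by the authors) come from its model. Calls have an FDR below 1%, a ratio of observed to expected of at least 2 and a distance of 20 kb to 1 Mb, on 19 autosomes. CTCF peaks carry a fold over input, as deposited by the authors from MACS2, with 2 lists per tissue-stage, of which the one that matches the study's supplement in its number of peaks was used and the other, of an origin not given in the sources used here, was an alternative; LV and FB at E14.5 had technical replicates and P0 had 1 library. The submitters' processing notes name mm10, BWA, SAMtools, Juicer and MACS2 without versions.

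Interactions per gene were counted on GENCODE M21 TSS bins with Python 3.11.15 (pandas 2.3.3), scaled to the median total, and tested with limma 3.58.1 (trend, log2 of scaled number + 1, mean of at least 1, Benjamini-Hochberg, 0.05) in R 4.3.3, over 14 libraries at E12.5 or 12 of FB. The fit was tested on simulated data. Alternatives were no scaling, a pseudocount of 0.5, no filter, an FDR below 0.1%, a ratio of at least 3, the 5-prime-most TSS, edgeR 4.0.16, a replicate block and each library left out. The CTCF matrix (19 bp) was estimated from 5000 peaks with a site threshold of 0.0001. Named genes are the 5 genes, genes in partner bins called in at least 6 pooled sets or in both LM and CF, the 3 genes of most like pattern, and list genes past the threshold by adjusted p; other genes in partner bins were named after their values were seen. The result of 1 list gene is not reported here. Members and lists were chosen with earlier results of these data known.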

Additional observations from a re-analysis of the deposited data

How the results depend on the processing

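The numbers of interactions are small and depend on depth, the largest library having 63868 calls and the smallest 11396, so a lack of calls in a library is no sign that contacts are absent, and 2 replicates per tissue-stage leave the spread poorly known. The calls of Hand2, Twist1, Twist2 and Pitx1 in LM and CF against neural tissues stayed past the threshold in all 8 alternatives and all 14 fits without a library, with adjusted p of at most 0.025 (Pitx1). In LM against CF, Twist2 passed the threshold without CF replicate 2 (adjusted p = 0.049), and the calls of Hand2, Twist1 and Twist2 in LV that changed are given in the report.

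With calls at a ratio of at least 3, the number of genes called was 927 for LM and CF against neural tissues and 212 for LM against CF. With edgeR it was 203 for LM against CF and 1385 for LV, and without scaling 2811 for FB. With each library left out in turn, it lay between 931 and 1496 for LM and CF against neural tissues (1445 with all), between 121 and 491 for LM against CF (429), between 1131 and 2570 for LV (2492) and between 683 and 1334 for FB (1279). Counts more than 1.5 times lower came without LM replicate 1 (931) in the first, without CF replicate 1 (121), CF replicate 2 (172) or LM replicate 1 (137) in the second, without LV replicate 1 (1436) or 2 (1131) in LV, and without E16.5 replicate 2 (759) or P0 replicate 1 (683) or 2 (798) in FB. The sign turned, with no call on either side, for Pitx1 in LM against CF at a ratio of at least 3 (0.0688), for Hand2 in FB without scaling (0.26), with an FDR below 0.1% (0.15) and with a ratio of at least 3 (0.0684), and for Pitx1 in FB without scaling (0.0805). The cause was not tested. Counting partners within 1 bin took the share found in both replicates to 73.7% and the share found only in LM or CF to 43.5%. With all CTCF peaks, 37.0% of calls had CTCF at the promoter end and 13.3% at both ends, and with a motif threshold of 0.00001, 3.46% at both ends. Without scaling, the share of calls that were higher was 19.2% in LM against CF (30.3% with it), 20.8% in LV (47.8%) and 98.1% in FB (61.6%).

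The replicate numbers did not pair the libraries, since deviations from the group means of same-numbered libraries correlated between -0.058 and 0.043 over 21 pairs at E12.5 and between -0.048 and 0.077 over 15 pairs in FB. With the replicate block, 1380 genes were called for LM and CF against neural tissues, 389 for LM against CF, 2409 for LV and 1298 for FB, and no call of a member changed.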

Other observations

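In LV against the other E12.5 tissues, 12 of the 22 signals, regulators and targets were lower and 1 higher, beside 24.1% and 22.1% of all genes, the median being -1.41 beside -0.09 for all genes. Msx1 (-3.27 ± 0.27, adjusted p = 1.47e-06, limma) and Dlx5 (-3.56 ± 0.30, adjusted p = 1.77e-06) were at 0 in both LV libraries. Zeb2, a repressor also active in blood cells, was higher (2.14 ± 0.44, adjusted p = 0.0018). Among dimer partners and inhibitors, Id4 (-4.86 ± 0.22, adjusted p = 1.49e-08), Tcf4 (-3.25 ± 0.43, adjusted p = 6.87e-05) and Id2 (-1.60 ± 0.50, adjusted p = 0.020) were lower and Tcf3 was higher (1.04 ± 0.37, adjusted p = 0.036). Pitx3 was higher (1.48 ± 0.33, adjusted p = 0.0033).

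In late FB (E16.5 with P0) against early FB (E12.5 with E13.5), 4 of 16 tested signals, regulators and targets were lower by limma, beside 9.23% of all genes, with Tbx3 (-1.50 ± 0.18, adjusted p = 0.00011), Gli3 (-1.58 ± 0.20, adjusted p = 0.00013), Fgfr3 (-1.74 ± 0.28, adjusted p = 0.00067) and Fgf8 (-0.79 ± 0.17, adjusted p = 0.0052), and Id4 was lower as well (-0.69 ± 0.16, adjusted p = 0.0058). Between LM and CF, Id4 (1.72 ± 0.29, adjusted p = 0.0037) and Tcf3 (2.08 ± 0.49, adjusted p = 0.021) were higher in LM, as were 2.41% of all genes.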
